A study of Homo sapiens with 8 samples.

Results

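The 48 genes described here are the protein-coding SR protein (SRSF), heterogeneous nuclear ribonucleoprotein (HNRNP) and SF3A or SF3B genes, chosen by their GENCODE release 29 symbols out of 66206 gene identifiers in each of 2 expression tables. They comprise 12 SR protein genes, 27 hnRNP genes and 9 SF3 genes. RNA was sequenced from A549 cells, an established human lung adenocarcinoma line, in 4 groups of 2 libraries. One group was transfected with 25 pmol of locked nucleic acid (LNA) gapmer directed at LY6K-AS, a long non-coding RNA, and its control group with 25 pmol of a scramble gapmer. The other knockdown group received 40 pmol of an siRNA against YWHAG, which encodes 14-3-3 gamma, and its control group 40 pmol of a scramble siRNA. All cells were transfected with the same lipid reagent, and no untransfected cells were analysed here. Titles number the LY6K-AS gapmer libraries LNA1 and LNA3 and the YWHAG libraries si1 and si2, so each pair may carry separate oligonucleotides; they are called knockdowns 1 and 2 here. Nothing in the labels ties the 2 libraries of a group to separate cultures, and a p-value here measures only their spread, which may be technical.

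SR proteins bind exonic enhancer sequences through RNA recognition motifs and recruit the splicing machinery through domains rich in arginine and serine. hnRNPs coat nascent transcripts, and many of them oppose SR proteins by binding silencer sequences in exons or introns. SF3A and SF3B are the protein complexes of the U2 small nuclear ribonucleoprotein (snRNP) that hold the branch site of the intron. Genes of all 3 families are expressed in dividing cells of most tissues, and their levels are known to shift splice site choice.

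Library totals recovered from the values ranged from 26.2 M to 34.0 M reads (M, 1e6) in the LNA libraries and from 33.7 M to 34.6 M in the siRNA libraries. Mitochondrially encoded genes took 8.37% and 4.12% of reads in LY6K-AS knockdowns 1 and 2, against 8.43% and 6.43% in LNA controls 1 and 2. They took 14.0% and 18.2% in YWHAG knockdowns 1 and 2, against 15.3% and 18.2% in siRNA controls 2 and 3. The labels name no identifier for LY6K-AS, and the annotated gene LNCOC1 was taken for it. LNCOC1 had 3 and 8 reads in the knockdown libraries, against 34 and 17 reads in the LNA controls. LNCOC1 did not pass the filter on low values, so its change was not tested. It overlaps LY6K on the opposite strand, and reads of the overlap cannot be told apart. YWHAG stood at 13.5 and 4.91 RPKM in its knockdown libraries and at 163 and 158 RPKM in the siRNA controls. The difference of YWHAG on the log2 scale was −4.12, and with 2 libraries a group it missed the threshold (limma adjusted p = 0.130). The epithelial keratins KRT8 and KRT18 ranged from 285 to 438 and from 230 to 558 RPKM over the 8 libraries, CDH1 from 4.42 to 13.5 RPKM, EPCAM from 1.14 to 10.6 RPKM and KRT19 from 4.26 to 120.0 RPKM. The scramble controls of the 2 tables differed in these markers. LNA and siRNA control means were 38.4 and 4.84 RPKM for KRT19, 1.79 and 9.84 for EPCAM and 7.49 and 4.52 for CDH1. For KRT8 they were 287 and 319 RPKM, and for KRT18 243 and 411 RPKM. After LY6K-AS knockdown KRT19 stood at 2.69 times its control mean, and after YWHAG knockdown CDH1 stood at 2.70 times and EPCAM at 0.589 times theirs; none of the 3 passed (limma adjusted p = 0.103, 0.130 and 0.274), and their part in the results on the members was not tested. The immune markers PTPRC and CD68 were at most 0.00354 and 0.0887 RPKM, and the endothelial markers VWF and PECAM1 at most 0.00837 and 0.0299 RPKM. The lung lineage markers NKX2-1, SFTPB and SFTPC were at most 0.0711 RPKM. The fibroblast marker COL1A1 was at 0.709 to 9.41 RPKM and PDGFRB at 0.008 to 0.050 RPKM.

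The windows before 2 of the genes are shown. SRSF3 had the smallest p of the SR family after LY6K-AS knockdown. SF3B1 had the smallest p of the SF3 genes with a listed window free of exons of protein-coding genes. The SF3B1 window holds none of the motifs marked. RefSeq lists 2 windows for SF3B1, and only the one printed is described. Both run 5′ to 3′ on the gene's own strand from 250 to 11 bases before the RefSeq start, GRCh38.p14, at chr6:36594112-36594351 (plus strand) and chr2:197435104-197435343 (minus strand). Capitals mark CCAAT boxes (CCAAT or its reverse complement) and the TATA box (TATAAA).
SRSF3: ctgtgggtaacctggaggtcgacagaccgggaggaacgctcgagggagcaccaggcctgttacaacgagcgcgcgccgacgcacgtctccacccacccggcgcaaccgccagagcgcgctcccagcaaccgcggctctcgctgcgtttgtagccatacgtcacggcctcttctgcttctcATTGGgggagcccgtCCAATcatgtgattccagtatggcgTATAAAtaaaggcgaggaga
SF3B1: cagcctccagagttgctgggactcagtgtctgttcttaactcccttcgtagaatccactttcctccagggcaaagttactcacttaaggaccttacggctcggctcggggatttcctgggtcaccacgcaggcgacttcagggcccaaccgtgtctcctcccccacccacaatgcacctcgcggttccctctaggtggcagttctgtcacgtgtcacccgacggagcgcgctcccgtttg
In the SRSF3 window 2 CCAAT boxes and 1 TATA box were found, and its GC content was 62.1%, against 59.2% in the SF3B1 window. Of the 42 tested members, 38 had at least 1 entry in the RefSeq promoter table; HNRNPA1, HNRNPA1P48, SF3B3 and SRSF2 had none. In the 250 bases before the start, on either strand, 68.4% of these 38 genes held a GC box (GGGCGG), 15.8% a TATA box and 28.9% the ETS core CCGGAAG, and 19 held a CCAAT box. The shares over the 9696 tested genes with an entry were 75.6%, 7.3%, 19.1% and 41.0% in the same order, and over all 27305 genes listed by RefSeq there 46.2%, 13.0%, 10.2% and 37.0%. These are 4 of 13 motifs searched. The shares of the other 9 are given as values only: in members and in tested genes they were 18.4% and 11.4% for CACGTG, 18.4% and 12.5% for TGACGT, 26.3% and 22.3% for ATTGGC, 7.9% and 0.9% for the ZBTB33 consensus, and 2.6% and 1.1% for TTTGGCGC. The NRF1 consensus, TGACGTCA, the YY1 consensus and TTTCGCGC were found before no member and before 2.3%, 3.4%, 0.5% and 0.9% of tested genes. TGACGTCA contains TGACGT, and ATTGGC contains the reverse complement of CCAAT. The median GC content of the windows was 64.9% for members and 64.8% for tested genes. No difference in share was tested.

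After LY6K-AS knockdown, 37 of the 42 members tested were lower than in the scramble LNA control, against 49.8% of all genes tested, and 5 were higher, against 50.2%. The median log2 change was −0.38 for the hnRNP genes, of which all 22 tested were lower, and −0.34 for the SR protein genes, of which 10 of 11 were lower. The SF3 genes were divided, with 5 of 9 lower and a median of −0.05. Over all 14661 genes tested the median was 0.002. RPKM counts reads per kilobase of merged exon length and 1e6 reads, and a change is a difference of log2(RPKM + 1), a scale that shrinks the changes of weakly expressed genes.

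No member passed the threshold of 0.05 in limma with Benjamini-Hochberg adjustment over all genes tested, where percent called was 0.0: none of the 14661 genes passed, and the smallest adjusted p was 0.103. At an unadjusted p under 0.05, limma found 23 of the 42 members lower (percent called over all genes, 11.8) and 0 higher (13.5 over all genes). That count of members fell steeply when either LNA control was left out, as did the share over all genes in either direction. limma voom on recovered reads also called 0 genes, with 24 of 43 members tested lower at an unadjusted p under 0.05, against 25.8% of all genes in either direction. With the spread pooled over 8 libraries 74 genes passed (percent called 0.575) and no member, the smallest adjusted p of a member being 0.0667 (SRSF3). Leaving out a knockdown library changed the calls: 32 of 42 members and 7885 genes (55.6% of all tested) passed without knockdown 1, and 27 of 42 members and 4644 genes (32.7%) without knockdown 2, in fits that take the lone knockdown library to vary like the controls. In 32 of the 42 members both knockdown libraries lay below both controls, against 30.6% of all genes, and in 2 members both lay above, against 31.4%. Knockdown libraries 1 and 2 had member medians of −0.31 and −0.41. For the SF3 genes these medians were −0.20 and 0.10, on opposite sides of 0.

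**Figure D1:**
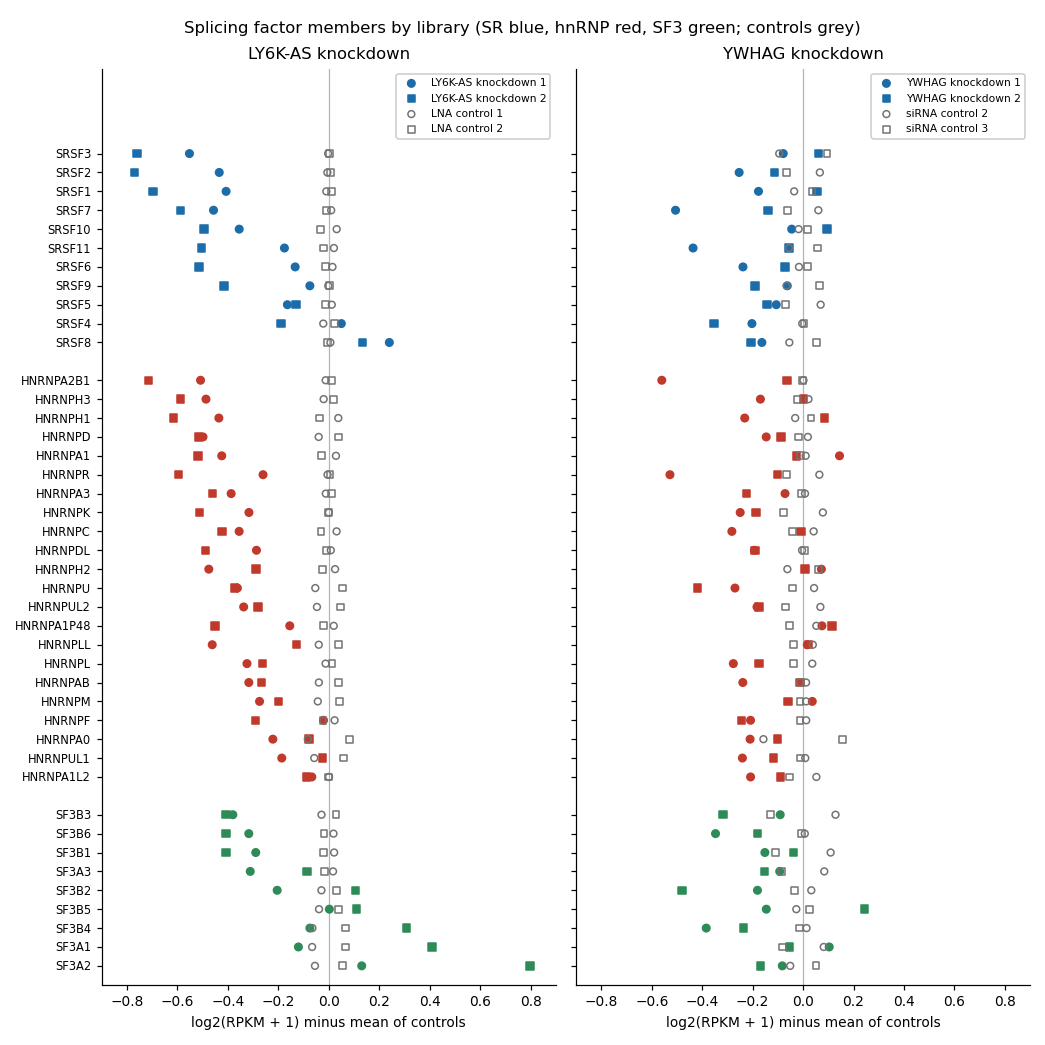
Each row is 1 of the 42 members tested and each point 1 library, as log2(RPKM + 1) minus the mean of its 2 controls, for the LY6K-AS knockdown (left) and the YWHAG knockdown (right). Filled symbols are knockdown libraries in the colour of the family and open grey symbols are controls; after LY6K-AS knockdown 32 members have both filled symbols left of both controls.

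Shares of reads were compared as well, where the length divisor of RPKM does not enter, although the reads of genes with another identifier version rest on a recovered length. The SR protein genes took 0.148% and 0.125% of all reads in LY6K-AS knockdowns 1 and 2, against 0.183% and 0.182% in LNA controls 1 and 2. The hnRNP genes took 0.565% and 0.542% in the knockdowns, against 0.711% and 0.730% in the controls. The SF3 genes took 0.141% and 0.165% in the knockdowns, against 0.162% and 0.167% in the controls. In bulk RNA, a change in the number of cells of a kind and a change in RNA per cell cannot be told apart.

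Among the SR proteins, SRSF3 (ENSG00000112081.16, hg38 chromosome 6, 36594353 to 36605600, plus strand), the smallest of the family and also an RNA export adaptor, had the smallest p. It was at 28.7 and 24.7 RPKM in the knockdown libraries and at 42.5 and 42.7 RPKM in the controls. The groups did not overlap, and the knockdown mean was 0.628 times the control mean (26.7 ± 2.83 against 42.6 ± 0.106 RPKM, SD, n = 2 each). Its log2 change was −0.66 ± 0.11 (SE) and did not pass (limma adjusted p = 0.103).

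SRSF7 (chromosome 2, 38743599 to 38751494, minus strand), a close relative of SRSF3 with a zinc knuckle, was at 34.4 and 31.4 RPKM in the knockdowns and at 47.9 and 47.3 RPKM in the controls, a log2 change of −0.52 ± 0.09 (SE). SRSF10 (chromosome 1, 23964804 to 23980927, minus strand), which acts as a repressor when dephosphorylated, was at 8.53 and 7.66 RPKM in the knockdowns and at 11.5 and 10.9 RPKM in the controls, a change of −0.42 ± 0.10. Both genes had knockdown libraries below both controls, and neither passed (limma adjusted p = 0.104 for SRSF7 and 0.119 for SRSF10).

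SRSF2 (chromosome 17, 76734115 to 76737374, minus strand), the speckle protein also called SC35, was at 46.8 and 36.9 RPKM in the knockdowns, against 63.4 and 63.9 RPKM in the controls. Its log2 change was −0.60 ± 0.14 (SE; limma adjusted p = 0.120). SRSF2 overlaps MFSD11 on the opposite strand. The sources used here do not say whether counting used strand, so reads of such overlaps cannot be told apart. SRSF1 (chromosome 17, 58003360 to 58007346, minus strand), the prototype SR protein ASF/SF2 and the highest of the family in the controls, was at 65.4 and 53.3 RPKM in the knockdowns and at 86.5 and 87.6 RPKM in the controls. Its change was −0.55 ± 0.13 (SE; limma adjusted p = 0.120). In SRSF1 and SRSF2 the second knockdown library was the lower one.

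SRSF8 (chromosome 11, 95067197 to 95071224, plus strand), a gene that arose as a retrotransposed copy of SRSF2, stood on the other side. It was at 9.66 and 8.91 RPKM in the knockdowns and at 8.07 and 7.99 RPKM in the controls, with no overlap. Its log2 change was 0.19 ± 0.09 (SE) and did not pass (limma adjusted p = 0.277). The remaining SR protein genes tested, SRSF4, SRSF5, SRSF6, SRSF9 and SRSF11, had changes between −0.34 (SRSF11) and −0.07 (SRSF4), and of these only SRSF4 had groups that overlapped.

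Among the hnRNPs, HNRNPH3 (chromosome 10, 68331174 to 68343191, plus strand), a member of the family that binds G-rich tracts, had the smallest p. It was at 21.7 and 20.1 RPKM in the LY6K-AS knockdowns and at 30.3 and 31.2 RPKM in the LNA controls. Its log2 change was −0.54 ± 0.09 (SE; limma adjusted p = 0.103). The gene overlaps PBLD and RUFY2 on the opposite strand.

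HNRNPD (chromosome 4, 82352498 to 82374503, minus strand), known as AUF1 for its binding to AU-rich elements in mRNA, was at 27.1 and 26.7 RPKM in the knockdowns and at 37.6 and 39.8 RPKM in the controls. Its log2 change was −0.51 ± 0.09 (SE; limma adjusted p = 0.104), and the 2 knockdown libraries lay closer to each other than the 2 controls did. HNRNPA1 (chromosome 12, 54280193 to 54287088, plus strand), a silencer-binding repressor of splice sites, was at 21.7 and 20.2 RPKM in the knockdowns, against 30.05 and 28.8 RPKM in the controls. Its change was −0.47 ± 0.09 (SE; limma adjusted p = 0.105).

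HNRNPA2B1 (chromosome 7, 26173057 to 26201529, minus strand), a relative of HNRNPA1 that also binds N6-methyladenosine-containing RNA, was the highest member in the LNA controls. It was at 132 and 115 RPKM in the knockdowns and at 187 and 190 RPKM in the controls, 123 ± 12.6 against 189 ± 2.30 RPKM (SD, n = 2 each). Its log2 change of −0.61 ± 0.11 (SE) was the lowest of the hnRNPs and did not pass (limma adjusted p = 0.104). It overlaps NFE2L3 and CBX3 on the opposite strand. The other 18 hnRNP genes tested had changes between −0.53 (HNRNPH1) and −0.08 (HNRNPA1L2). Groups overlapped in HNRNPA0, HNRNPF and HNRNPUL1 and in no other hnRNP gene tested.

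**Figure D2:**
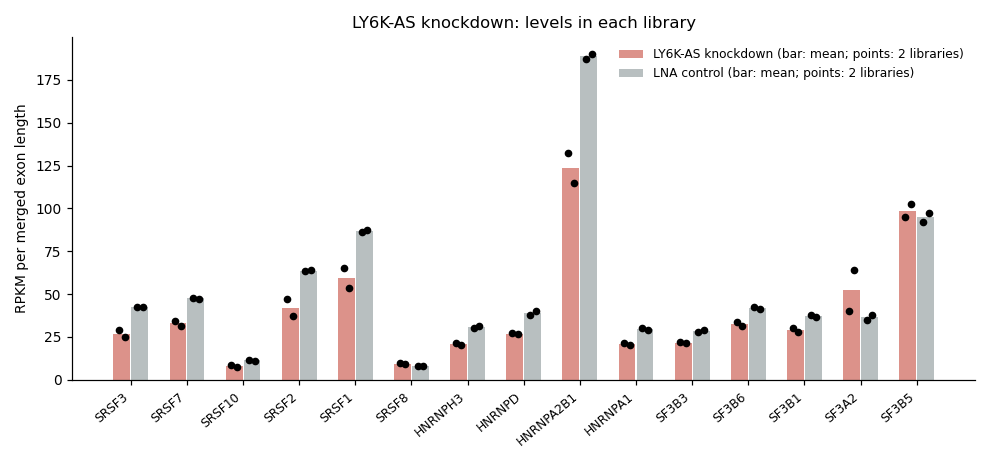
Bars are means and points the 2 libraries of each group, in RPKM per merged exon length, for the 15 members named for the LY6K-AS comparison, with the knockdown left of its control. In SRSF8 and SF3A2 both knockdown points lie above both controls, SF3B5 overlaps, and in the other 12 genes both lie below.

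The SF3 genes were divided, and of those above 0 only SF3A2 had both knockdown libraries above both controls. SF3B3 (chromosome 16, 70523788 to 70577670, plus strand), a large scaffold subunit of SF3B, was at 21.8 and 21.4 RPKM in the LY6K-AS knockdowns and at 28.1 and 29.3 RPKM in the LNA controls, a log2 change of −0.39 ± 0.08 (SE). SF3B6 (chromosome 2, 24067584 to 24076443, minus strand), the p14 subunit that contacts the branch adenosine, was at 33.5 and 31.4 RPKM in the knockdowns and at 42.5 and 41.4 RPKM in the controls, a change of −0.36 ± 0.09. SF3B1 (chromosome 2, 197389784 to 197435091, minus strand), the subunit that clamps the branch site and is recurrently mutated in myelodysplasia, was at 30.3 and 27.8 RPKM in the knockdowns and at 37.8 and 36.7 RPKM in the controls, a change of −0.35 ± 0.09. In these 3 genes the groups did not overlap, and limma adjusted p-values were 0.112, 0.125 and 0.136 in the same order.

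SF3A2 (chromosome 19, 2236504 to 2248679, plus strand), a subunit of the SF3A trimer, was at 40.1 and 64.2 RPKM in the knockdowns and at 35.1 and 37.9 RPKM in the controls. The groups did not overlap, but the second knockdown library stood far above the first. The log2 change was 0.46 ± 0.24 (SE; limma adjusted p = 0.303). It was 0.80 without knockdown library 1 and 0.13 without knockdown library 2, each value resting on 1 knockdown library. SF3A2 overlaps PLEKHJ1 on the opposite strand. At 62.8%, the mean GC content of its annotated transcripts was the highest of the members. SF3B5 (chromosome 6, 144094881 to 144095573, minus strand), a small subunit of SF3B and the highest SF3 gene in the controls, was at 94.9 and 102 RPKM in the knockdowns and at 92.2 and 97.4 RPKM in the controls, with overlap. Its change was 0.06 ± 0.10 (SE; limma adjusted p = 0.740), and it was −0.079 once the trend with GC content had been removed. The remaining SF3 genes, SF3A1, SF3A3, SF3B2 and SF3B4, had changes between −0.20 (SF3A3) and 0.14 (SF3A1). Groups overlapped in all of these but SF3A3. In SF3A1, SF3B2 and SF3B4, knockdown library 1 lay below the control mean and library 2 above it.

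GC content moved with the change after LY6K-AS knockdown. The GC content of a gene is the mean over its annotated transcripts. Across the 14661 genes tested, Spearman's rho between log2 change and GC content was 0.54, and across the 42 members it was 0.48. These are correlations across genes of the same 4 libraries, given as a description. The members' median GC content was 45.1%, against 50.4% over all genes tested. The 2 control libraries also differed along GC content, with a rho of 0.25 over all genes for control 2 minus control 1. The same comparison of the siRNA controls gave 0.27. After the YWHAG knockdown rho was 0.04 over 13755 genes and 0.06 over the members.

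With the trend of each library removed, the median log2 change of the members after LY6K-AS knockdown was −0.21, with 35 of 42 lower. The family medians were −0.19 for SR proteins, −0.24 for hnRNPs and −0.087 for SF3 genes. SRSF3 was at −0.52 (limma adjusted p = 0.137), HNRNPA2B1 at −0.43 (0.151) and SF3A2 at 0.14 (0.701). In that fit 20 members had an unadjusted p under 0.05 and were lower, and 1 was higher, against 19.5% of all genes in either direction, and no gene passed the threshold. The part of GC content in the remaining difference was not tested.

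**Figure D3:**
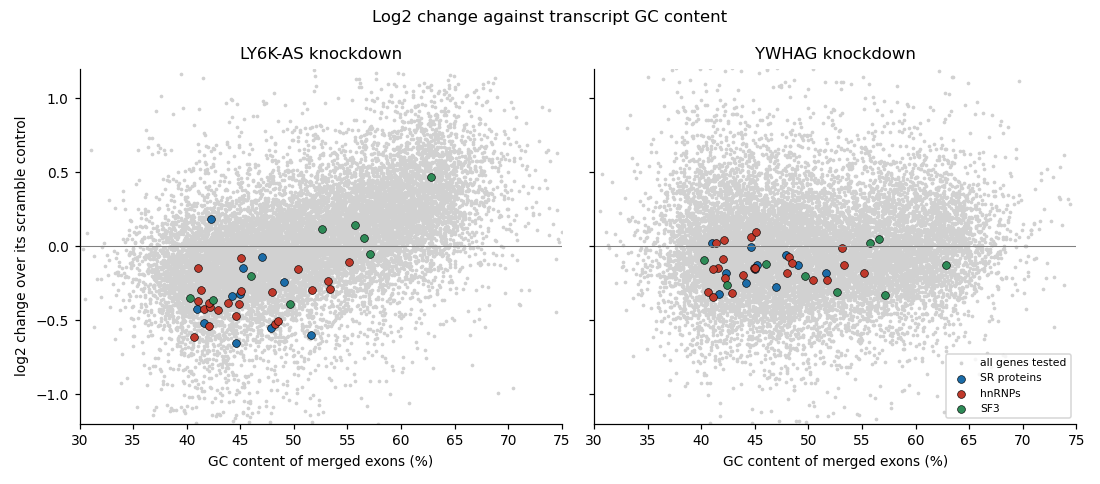
Log2 change of each gene over its scramble control against the mean GC content of its annotated transcripts in percent (the axis label says merged exons). The LY6K-AS knockdown is on the left and the YWHAG knockdown on the right, with all genes tested in grey and members in colour. Genes beyond the axis limits are not drawn; the grey cloud rises with GC content on the left (rho 0.54) and not on the right (rho 0.04).

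After YWHAG knockdown, 35 of the 42 members tested were lower than in the scramble siRNA control, against 57.6% of all genes tested, and 7 were higher, against 42.4%. Their median log2 change was −0.15, against −0.05 over all 13903 genes tested. It was −0.090 with median-of-ratios scaling and −0.081 with voom, with 32 members lower in each. The family medians were −0.16 for SR proteins (10 of 11 lower), −0.15 for hnRNPs (18 of 22) and −0.13 for SF3 genes (7 of 9). In 24 members both knockdown libraries lay below both controls, against 30.8% of all genes, and in 1 both lay above, against 20.4%. No member and none of the 13903 genes passed in limma (percent called 0.0, smallest adjusted p 0.130). At an unadjusted p under 0.05, limma found 1 member lower and 0 higher, against 8.9% lower and 7.51% higher over all genes. limma voom on recovered reads called 0 genes, with 0 members at an unadjusted p under 0.05, against 15.2% of all genes in either direction. With the spread pooled over 8 libraries 215 genes passed (percent called 1.67) and no member, the smallest adjusted p of a member being 0.167 (HNRNPU).

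SR protein genes took 0.136% and 0.153% of reads in YWHAG knockdowns 1 and 2, against 0.158% and 0.1601% in siRNA controls 2 and 3. hnRNP genes took 0.714% and 0.765% in the knockdowns, against 0.840% and 0.818% in the controls. SF3 genes took 0.142% and 0.136% in the knockdowns, against 0.166% and 0.149% in the controls. In each family both knockdown libraries had a smaller share than both controls.

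The SR protein gene with the smallest p was SRSF4 (chromosome 1, 29147743 to 29181987, minus strand), one of the longer family members. It was at 6.68 and 5.92 RPKM in the YWHAG knockdowns and at 7.82 and 7.86 RPKM in the siRNA controls, a log2 change of −0.28 ± 0.13 (SE; limma adjusted p = 0.365). SRSF7 was at 38.0 and 49.2 RPKM in the knockdowns and at 56.7 and 52.0 RPKM in the controls, a change of −0.32 ± 0.17 (adjusted p = 0.412), with most of it in the first knockdown library. SRSF8 was at 5.23 and 5.05 RPKM in the knockdowns and at 5.72 and 6.25 RPKM in the controls, a change of −0.18 ± 0.13 (adjusted p = 0.513). SRSF11, a protein that works beside U2AF at the start of spliceosome assembly, had groups that overlapped (9.91 and 13.2 RPKM in the knockdowns, 13.2 and 14.3 RPKM in the controls). SRSF1 and SRSF10 also overlapped, with changes of −0.06 and 0.02.

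HNRNPU (chromosome 1, 244840638 to 244864560, minus strand), a nuclear scaffold protein that binds chromatin and RNA, was the member with the smallest p. It was at 79.7 and 71.8 RPKM in the YWHAG knockdowns and at 99.2 and 93.4 RPKM in the siRNA controls, 75.7 ± 5.57 against 96.3 ± 4.16 RPKM (SD, n = 2 each). Its log2 change was −0.34 ± 0.13 (SE; limma adjusted p = 0.304). The gene overlaps COX20 on the opposite strand.

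HNRNPF (chromosome 10, 43385617 to 43409166, minus strand), which binds G-rich tracts, was at 78.2 and 76.2 RPKM in the knockdowns, against 91.2 and 89.7 RPKM in the controls. HNRNPL (chromosome 19, 38836388 to 38852347, minus strand), which binds CA repeats, was at 34.8 and 37.5 RPKM in the knockdowns, against 43.5 and 41.3 RPKM in the controls. Neither gene overlapped between groups, and the log2 change was −0.23 ± 0.12 (SE) for HNRNPF (limma adjusted p = 0.415) and −0.23 ± 0.13 for HNRNPL (adjusted p = 0.434). HNRNPR was at 19.7 and 26.8 RPKM in the knockdowns and at 30.2 and 27.6 RPKM in the controls, a change of −0.31 ± 0.19. HNRNPA2B1 showed the same unevenness between its knockdown libraries, at 106 and 150 RPKM, against 157 and 156 RPKM in the controls.

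HNRNPA1 was the highest hnRNP in the siRNA controls and overlapped between groups, at 230 and 205 RPKM in the YWHAG knockdowns and 210 and 207 RPKM in the controls. HNRNPA1P48, which the annotation lists as protein-coding although its name is that of a pseudogene, was at 3.87 and 4.004 RPKM in the knockdowns and at 3.79 and 3.46 RPKM in the controls, a change of 0.09 ± 0.13 (limma adjusted p = 0.744). Reads of near-identical copies can be split between genes in counting, so its values are uncertain.

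SF3B4 (chromosome 1, 149923317 to 149928344, minus strand), which contacts pre-mRNA upstream of the branch site, was at 37.3 and 41.4 RPKM in the YWHAG knockdowns and at 49.5 and 48.5 RPKM in the siRNA controls, a log2 change of −0.31 ± 0.13 (SE; limma adjusted p = 0.328). SF3B2 (chromosome 11, 66050729 to 66069308, plus strand), its binding partner in SF3B, was at 26.7 and 21.5 RPKM in the knockdowns and at 31.2 and 29.7 RPKM in the controls, a change of −0.33 ± 0.16 (adjusted p = 0.364). SF3B6, the highest SF3 gene in these controls, was at 65.8 and 74.0 RPKM in the knockdowns and at 84.4 and 83.6 RPKM in the controls, a change of −0.26 ± 0.13 (adjusted p = 0.387). In these 3 genes both knockdown libraries lay below both controls. SF3B3 overlapped (25.9 and 22.0 RPKM in the knockdowns, 30.3 and 25.2 RPKM in the controls), as did SF3B5, whose change was 0.05 ± 0.17.

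The difference between the knockdowns, LY6K-AS effect minus YWHAG effect, was tested in 1 limma fit over the 8 libraries. Of 12873 genes, 23 passed the threshold (percent called 0.179), and no member was among them. The difference was above 0 in 11 of 42 members, against 54.2% of all genes, and below 0 in 31, against 45.8%. At an unadjusted p under 0.05, 7 members were on the side lower after LY6K-AS knockdown (8.87 percent called over all genes) and 1 on the other side (11.5). limma voom on recovered reads called 42 genes and no member.

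The smallest p among members belonged to SRSF3, with a difference of −0.65 ± 0.18 (SE; limma adjusted p = 0.127). In YWHAG knockdowns SRSF3 was at 34.3 and 37.8 RPKM, against 33.9 and 38.8 RPKM in the siRNA controls, so the groups overlapped there. Next were HNRNPA1 at −0.53 ± 0.16 (adjusted p = 0.148), HNRNPH3 at −0.45 ± 0.16 (0.186), SRSF10 at −0.45 ± 0.16 (0.190) and HNRNPD at −0.39 ± 0.15 (0.207). A further 3 genes lay outside both controls in opposite directions in the 2 knockdowns, chosen after their values were seen: SF3A2 and SRSF8 were above the LNA controls and below the siRNA controls, and HNRNPA1P48 the reverse. Their differences were 0.59 ± 0.29 (adjusted p = 0.302), 0.37 ± 0.16 (0.240) and −0.40 ± 0.19 (0.276), and none passed. Without LY6K-AS knockdown library 1, the log2 change of SF3A2 over the LNA controls was 0.80, against 0.46 with both knockdown libraries.

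Across the 42 members the log2 changes had a Pearson's r of −0.02 and a Spearman's rho of −0.06, and across the 12873 genes tested in both r was 0.10 and rho 0.11. These are correlations across genes, which are not independent replicates. In 32 members (76.2%) the change was below 0 in both knockdowns, as it was for 32.1% of all genes.

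**Figure D4:**
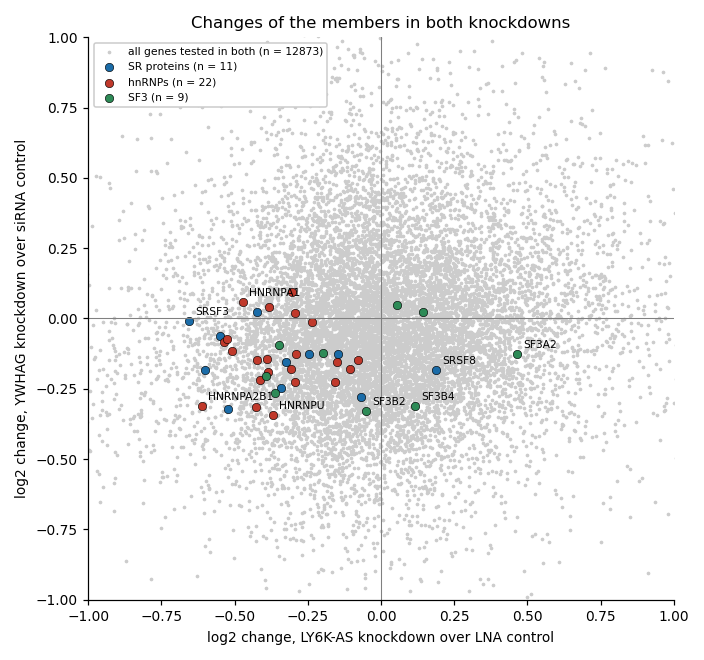
Log2 change after LY6K-AS knockdown over LNA control (horizontal) against log2 change after YWHAG knockdown over siRNA control (vertical), with 12873 genes in grey and the 42 members in the colour of their family; genes beyond 1 on either axis are not drawn. Of the 42 members, 32 sit at the lower left with both changes below 0, with SRSF3 far left and near 0 on the vertical axis.

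Levels of some members differed between the tables in both directions. The ratio of the LNA controls to the siRNA controls, per merged exon length, was highest for SF3A2 at 2.82, HNRNPA0 at 2.40 and SRSF9 at 2.27, and lowest for HNRNPA1 at 0.141, HNRNPA3 at 0.235, HNRNPA1P48 at 0.270 and HNRNPC at 0.375. It is not known if LNA reads were assigned to exons only or to entire gene spans, which bears on every LNA level given here. HNRNPA1, HNRNPA3 and HNRNPC have 74, 16 and 9 annotated pseudogenes named after them, and SRSF9 has 1. Reads assigned to the pseudogenes of HNRNPA1 came to between 4.398% and 5.797% of the reads of gene and pseudogenes in the LNA libraries and between 0.464% and 0.543% in the siRNA libraries. The tables were normalized separately, and the part of read assignment in these levels was not tested. Of the other 6 members, SRSF12 had at most 0.537 RPKM in any library and did not pass the filter on low values. HNRNPCL2 and HNRNPCL4 were at 0 in all 8 libraries, and HNRNPCL1, HNRNPCL3 and HNRNPUL2-BSCL2 were also below the filter.

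Splicing genes outside the 3 families were read from 6 lists of 125 genes. After LY6K-AS knockdown all 15 Sm and LSm genes, whose proteins form rings around snRNAs, were lower with both libraries below both controls, against 49.8% of all genes lower and 30.6% below both controls. Their median log2 change was −0.44, against 0.002 over all genes. The medians were −0.27 for tri-snRNP and PRP19 complex genes (25 of 29 lower), −0.19 for U1 and U2 snRNP and splice site factors (13 of 18), −0.15 for exon junction and nonsense-mediated decay factors (11 of 16), −0.14 for other hnRNP-type regulators (20 of 26) and −0.13 for SR-related activators and SR protein kinases (12 of 16). No gene of these lists passed (smallest limma adjusted p 0.103), and those at an unadjusted p under 0.05 and lower numbered 9, 13, 7, 4, 6 and 4 in the order given, with percent called 11.8 over all genes. The changes of the listed genes come from the fit with the GC trend left in, and the part of GC content in them was not tested.

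SNRPE and SNRPG are core subunits of the Sm ring. SNRPE was at 13.7 and 13.2 RPKM in the LY6K-AS knockdowns and at 24.7 and 24.5 RPKM in the LNA controls, a log2 change of −0.83 ± 0.08 (SE; limma adjusted p = 0.103). SNRPG was at 10.1 and 10.6 RPKM in the knockdowns and at 19.7 and 19.1 RPKM in the controls, a change of −0.85 ± 0.09 (adjusted p = 0.103). MAGOH, a core subunit of the exon junction complex, was at −0.64 and its paralog MAGOHB at −0.45. The splicing repressor TARDBP was at −0.47, the U2AF-related factor RBM39 at −0.46, the branch site helicase DDX46 at −0.45, the U2 protein SNRPB2 at −0.41, the tri-snRNP factors PPIH and USP39 at −0.57 and −0.41, the SR-like activator TRA2B at −0.43 and the SR protein kinase SRPK1 at −0.31. Their adjusted p-values in limma ran from 0.104 to 0.139.

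After YWHAG knockdown all 16 SR-related activators and SR protein kinases were lower, against 57.6% of all genes tested. Their median was −0.33, against −0.05 over all genes, and 6 had an unadjusted p under 0.05 (8.9 percent called over all genes). The Sm and LSm genes had a median of −0.06, with 10 of 15 lower, but their median was −0.29 in knockdown 1 and 0.13 in knockdown 2. The U1 and U2 factors had a median of −0.24 (17 of 18 lower), at −0.37 in knockdown 1 and −0.094 in knockdown 2. The other medians were −0.21 for tri-snRNP genes (23 of 29 lower), −0.17 for exon junction and decay factors (14 of 16) and −0.09 for other hnRNP-type regulators (19 of 27).

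DYRK1A, a kinase of splicing factors, was at 2.80 and 2.53 RPKM in the YWHAG knockdowns and at 4.08 and 3.89 RPKM in the siRNA controls, a log2 change of −0.44. PNN, an SR-related protein of nuclear speckles, was at 36.2 and 35.0 RPKM in the knockdowns and at 51.9 and 45.8 RPKM in the controls, also −0.44. The tri-snRNP protein PRPF3 had the smallest p of the lists, at 11.7 and 10.3 RPKM in the knockdowns and 22.7 and 20.02 RPKM in the controls, a change of −0.90 ± 0.14 (SE; limma adjusted p = 0.179). DDX46 was at −0.68, PPIH at −0.62, the U1 protein SNRNP70 at −0.48, TIAL1 at −0.35 and SNRPN at −0.31. On the other side, the exon junction subunits RBM8A and CASC3 were at 0.51 and 0.47, LSM6 at 0.39, and the developmental regulator MBNL1 at 0.62, with 14.1 and 13.0 RPKM in the knockdowns and 8.51 and 8.36 RPKM in the controls. None of these passed (limma adjusted p between 0.179 and 0.351). With the spread pooled over 8 libraries PRPF3 (adjusted p = 0.0340) and MBNL1 (0.0461) passed.

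**Figure D5:**
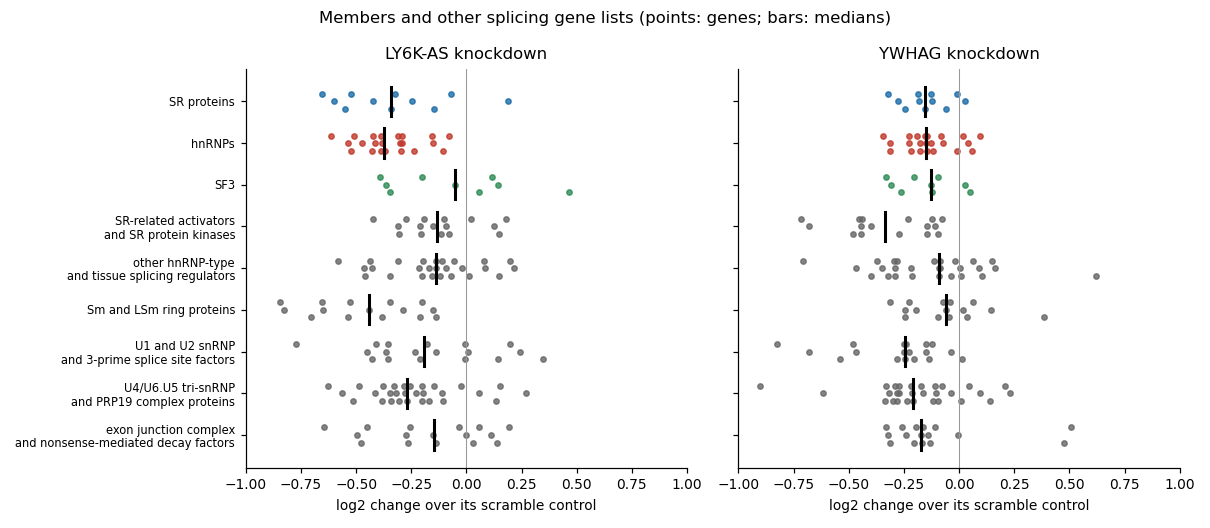
Each point is a gene and each bar the median of its list, as log2 change over the scramble control, for the LY6K-AS knockdown (left) and the YWHAG knockdown (right). The hnRNPs and the Sm and LSm genes have medians of −0.38 and −0.44 on the left, and the SR-related activators and kinases of −0.33 on the right.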

How the data were processed

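Gene-level RPKM values were analysed for 8 A549 libraries, deposited by the authors in 2 tables that were normalized separately. Per the submitters' processing notes, the tools were STAR, featureCounts, Subread and Picard and the build hg38; the notes do not state strand use. Of 66206 identifiers in each table, 57055 matched GENCODE release 29. Deposited RPKM times gene length gave whole reads for 100% of values (tolerance 0.05 reads) with the genomic span, taken as end minus start, in the LNA table, and in the siRNA table with merged exon length. LNA values were rescaled to merged exon length; whether LNA reads were counted over exons or the whole span is not stated. For genes of another identifier version, a length that made all 4 libraries whole was sought (the release 29 length where it did so, otherwise the shortest). This rule was set after values had been seen. Such a length was recovered for 1777 genes in the LNA table and 2151 in the siRNA table, 12 members among them. The others kept the release 29 length, HNRNPA1L2 and HNRNPCL1 among them, whose length was not checked in this way.

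Each knockdown was compared with its own control by limma 3.58.1 in R 4.3.3 (trend on mean level) after taking log2(RPKM + 1) of genes that reached 0.5 RPKM in 2 or more libraries, two-sided, adjusted over all genes by Benjamini and Hochberg, threshold 0.05. limma voom was run on the recovered reads, with trimmed-mean scaling factors computed in base R. The fits were also run on simulated reads with the same dispersion in all libraries and no trend with GC content. In the data the knockdown libraries differed more from each other than the controls did, so that run does not check the fits under such spread. The alternatives were other pseudocounts, filters and scalings, removal of the GC trend (lowess), the values as deposited, the spread pooled over 8 libraries, each library left out, and a replicate block. The siRNA control columns are numbered 2 and 3 and were matched to the group only. Named genes are, per family and comparison, the 4 members with the smallest p, the highest in the controls and the largest change against the family's direction, the 5 with the smallest p in the difference, and 2 genes per other list. For MATR3, which has 2 identifiers, the one with the higher mean was used, also chosen after values had been seen. The members and lists were chosen with earlier results of these data known. Intervals are not given; at this depth 3 reads corresponded to between 0.0868 and 0.115 reads per 1e6.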

Additional observations from a re-analysis of the deposited data

How the results depend on the processing

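Depth ran from 26.2 M to 34.6 M reads across libraries, and 2 libraries a group leave 2 residual degrees of freedom. The part of depth and of the spread between libraries in what passed was not tested. No member passed under any alternative that kept all libraries. With the spread pooled over 8 libraries, 74 genes passed after LY6K-AS knockdown and 215 after YWHAG knockdown, and the smallest adjusted p of a member was 0.0667 (SRSF3) and 0.167 (HNRNPU). Leaving out each library in turn, where the lone sample is assumed to vary like the other group, gave 0 to 7885 genes, 0 to 32 members and a member median of −0.41 to −0.31 after LY6K-AS knockdown. It gave 0 genes and 0 members without LNA control 1 or 2, 7885 genes and 32 members without knockdown 1, and 4644 genes and 27 members without knockdown 2. After YWHAG knockdown it gave 0 to 718 genes (718 without knockdown 2, 1 without knockdown 1), 0 members and a median of −0.19 to −0.10. For the difference it gave 0 to 1212 genes (1212 without LY6K-AS knockdown 1, 718 without YWHAG knockdown 1, 742 without YWHAG knockdown 2, 0 without any 1 of the other 5 libraries) and 0 to 1 members (SF3A2). The difference also called 5 genes with no filter, 43 with values as deposited and 42 with voom, against 23. The member median after LY6K-AS knockdown was −0.21 with the GC trend removed, and after YWHAG knockdown −0.090 with median-of-ratios scaling and −0.081 with voom; the cause was not tested. Restricting the fits to genes of the release 29 version, an alternative chosen after seeing the data, called 0, 0 and 20 genes and gave medians of −0.34 and −0.12.

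Of the single genes, SF3B5 turned to −0.079 with the GC trend removed (LY6K-AS). After YWHAG knockdown, SRSF1 turned to 0.0012 with median-of-ratios scaling, 0.012 with the GC trend removed and 0.0066 with voom; the cause was not tested. With each library left out, SRSF1 ran from −0.18 to 0.055 (highest without YWHAG knockdown 1), HNRNPA1 from −0.025 (without YWHAG knockdown 1) to 0.14, SF3B5 from −0.15 (without YWHAG knockdown 2) to 0.24 and SRSF10 from −0.045 (without YWHAG knockdown 2) to 0.094.

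With the replicate block in the LNA table, 0 genes and 0 members passed, and the member median stayed at −0.33. At an unadjusted p under 0.05, 20 members were lower and 1 higher, against 23 and 0 without the block. Over all genes in either direction the share was 23.5% with the block and 25.3% without it. The deviations of same-numbered libraries had a correlation of 0.081, which over 2 pairs does not settle whether they share a batch, and the labels state none. No paired analysis was possible for the siRNA table because its control columns are numbered 2 and 3.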
